A study of Mus musculus with 9 samples.

Results

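The BCL2 family decides whether the mitochondrial outer membrane is opened during apoptosis, and VDAC2, a porin of that membrane, is a known binding partner of its effector BAK. Levels of 10 genes of the family were read from the ribosome-depleted total RNA of the left ventricle of 16-week-old C57BL6J mice. The 10 genes are *Bak1*, *Bax*, *Bcl2*, *Bcl2l1*, *Mcl1*, *Bid*, *Bbc3*, *Bcl2l11*, *Pmaip1* and *Bad*, which were chosen by name and were all found among the 52636 genes of the deposited count table. Of the 9 libraries, 5 are labelled WT (libraries 1 to 5) and 4 are labelled KO (libraries 6 to 9). In the KO, floxed *Vdac2* was deleted during development by a Cre transgene under the αMHC promoter, which is active in cardiac myocytes and leaves the gene intact in the other cells of the ventricle. The WT were littermates that carried either the floxed allele or Cre, and which of these each WT library carried is not given in the sources used here. The labels give no sex or litter, and p-values measure the spread between these libraries only.

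*Vdac2* (ENSMUSG00000021771, chromosome 14 of GRCm38 from 21825238 to 21845879) goes against the labels in several libraries. Its level was 20.2, 366, 58.5, 365 and 21.3 CPM (counts scaled to the size of the library) across libraries 1 to 5 and 384, 20.5, 421 and 19.1 CPM across libraries 6 to 9. Tests and descriptions were therefore kept apart. The test was made between the deposited labels, on all 9 libraries. Beside it, the values of libraries 1, 5, 7 and 9, chosen for *Vdac2* levels of 19.1 to 21.3 CPM, were set next to those of libraries 2, 4, 6 and 8, chosen for levels of 365 to 421 CPM, as a description with no mean, fold change or test, and library 3 was shown apart. No library was given another genotype from its *Vdac2* level, and that level supports nothing here because it chose the libraries.

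Libraries held 27345052 to 44673988 counts, and a level of 3 counts, the smallest taken as shown, lay between 0.0693 and 0.114 CPM by counting error alone. Libraries 1 to 5 were sequenced in lane 1 and libraries 6 to 9 in lane 2, and *Xist* was at most 0.152 CPM in the former and at least 335 CPM in the latter, so that lane, label and the sex chromosome genes cannot be told apart. Besides library 3, each lane holds 2 libraries of low and 2 of high *Vdac2*. Library 3 stood apart in cell type markers, with a summed level of 7225 CPM for 5 cardiomyocyte genes against 34192 to 47597 CPM elsewhere, and of 403 CPM for 3 proliferation genes against 16.4 to 40.3 CPM. Its summed level was also above the other 8 libraries for fibroblast genes (1303 against 678 to 1088 CPM) and below them for endothelial (296 against 396 to 606 CPM) and smooth muscle and pericyte genes (392 against 787 to 1122 CPM). These sums did not hold for every gene, since *Col1a1* was at 691 against 15.5 to 57.0 CPM but *Dcn* at 454 against 560.5 to 935 CPM, and *Rgs5* at 276 against 733 to 1059 CPM but *Pdgfrb* at 103.5 against 35.0 to 54.9 CPM. Of the 4 endothelial genes 3 were lowest in library 3. The cardiomyocyte markers *Myh6*, *Tnnt2*, *Actn2*, *Myl2* and *Ryr2* were above 0 in every library, and of the atrial markers *Sln* was at most 0.0588 CPM and *Myl7* was at 0.115 to 1.13 CPM. Between the labels *Myl7* had an adjusted p of 0.68 (edgeR quasi-likelihood, unadjusted 0.012). In the same fit 2 of 4 macrophage genes (*Csf1r*, 0.044, and *Mrc1*, 0.018) also had an unadjusted p under 0.05. So did 1 of 4 fibroblast genes (*Pdgfra*, 0.040), against 6.11% of all tested genes. Each was lower under the KO label, with an adjusted p of 0.68, and was highest in library 3. DESeq2 gave 4 of 4 macrophage genes an unadjusted p under 0.05 and called 0 genes of any marker list. It gave an adjusted p to 0 of 3 proliferation genes and to 3 of 4 fibroblast genes, so the rest of these could not be called. A WT sample was left out of the study's own analysis for RNA quality and is not named in its text, so all libraries were kept.

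BAK and BAX are the effectors of the family, which oligomerise to form pores in the outer membrane and release cytochrome c. BCL2, BCL-xL (the product of *Bcl2l1*) and MCL1 hold them in check, and MCL1 is a short-lived protein that adult cardiomyocytes are known to need. The BH3-only proteins BID, BIM (*Bcl2l11*), PUMA (*Bbc3*), NOXA (*Pmaip1*) and BAD relay stress signals by activating the effectors or by occupying the guardians. Much of their control, such as the cleavage of BID and the phosphorylation of BAD, takes place on the protein and is not seen in RNA.

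The sequences upstream of 2 members are shown. *Bcl2* was taken as the 1 member of 10 whose values did not overlap between low and high *Vdac2* libraries. Of all tested genes 12.1% did not overlap either, so 1 of 10 is near the background. *Bax* was, with *Bak1*, among the members highest in library 3, which was highest for 37.7% of all tested genes. Each sequence is the 250 bases before the RefSeq start on GRCm38.p6, in lower case. Matches of 4 motifs, searched on both strands, are in capitals. The motifs are the GC box (letters GGGCGG), the CCAAT box, by its own name, the E-box (searched as CACGTG) and the cyclic AMP response element (searched as TGACGT). The *Bcl2* window is chr1:106714291-106714540 and the *Bax* window chr7:45466899-45467148, both on the minus strand. RefSeq upstream sequences were taken for 9 of the 10 members. The window of *Bak1* lies in annotated UTR and is not shown. *Pmaip1* was not among the 9, and whether RefSeq holds an entry for it was not tested.
Bcl2: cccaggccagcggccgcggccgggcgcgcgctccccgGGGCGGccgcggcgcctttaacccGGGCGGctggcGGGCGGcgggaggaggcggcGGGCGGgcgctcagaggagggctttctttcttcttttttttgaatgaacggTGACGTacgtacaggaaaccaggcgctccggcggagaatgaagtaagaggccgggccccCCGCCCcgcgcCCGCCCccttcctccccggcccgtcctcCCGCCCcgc
Bax: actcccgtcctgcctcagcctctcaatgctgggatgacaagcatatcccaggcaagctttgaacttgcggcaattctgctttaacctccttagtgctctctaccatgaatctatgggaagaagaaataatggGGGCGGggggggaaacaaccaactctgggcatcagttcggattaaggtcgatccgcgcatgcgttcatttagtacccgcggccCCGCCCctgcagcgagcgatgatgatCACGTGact
The *Bcl2* window holds 7 GC boxes and 1 cyclic AMP response element, and no match overlaps another. The *Bax* window holds 2 GC boxes and 1 E-box, and neither window holds a CCAAT box. Of all 32851 RefSeq windows of this length, 32.7% hold a GC box, 33.8% a CCAAT box, 6.02% an E-box and 6.47% a cyclic AMP response element, so that these matches are a description of the letters only.

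*Bak1* (ENSMUSG00000057789, chromosome 17 from 27019810 to 27029009, minus strand) encodes BAK. It measured 9.91, 9.91, 31.5, 8.41 and 9.73 CPM across libraries 1 to 5, labelled WT, and 10.9, 10.2, 10.7 and 13.1 CPM across libraries 6 to 9, labelled KO. One library was set off from the rest, library 3, at 3.13 times the median of the other 8. Libraries 1, 5, 7 and 9, low in *Vdac2*, ran from 9.73 to 13.1 CPM and overlapped libraries 2, 4, 6 and 8, which ran from 8.41 to 10.9 CPM. The means were 13.9 ± 9.88 CPM (SD, n = 5) under the WT label and 11.2 ± 1.27 CPM (SD, n = 4) under the KO label, and the log2 fold change was -0.31 (SE 0.39; SE is the standard error, and the edgeR quasi-likelihood p adjusted over all genes was 0.78). Without library 3 it was 0.24 (SE 0.10, adjusted p = 0.39), so the sign rested on that library. *Ggnbp1*, which overlaps exons of *Bak1* on the opposite strand, went the other way in library 3, at 2.05 CPM against 12.9 to 18.5 CPM elsewhere.

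*Bax* (ENSMUSG00000003873, chromosome 7 from 45461697 to 45466898, minus strand) encodes the other effector, which waits in the cytosol of healthy cells. Its level per library was 7.81, 7.46, 18.8, 8.22 and 8.60 CPM across libraries 1 to 5 and 7.51, 7.86, 8.53 and 8.89 CPM across libraries 6 to 9. The other 8 libraries differed by at most 1.19 times, and library 3 was 2.12 times the highest of them. Low and high *Vdac2* libraries overlapped, at 7.81 to 8.89 CPM and 7.46 to 8.53 CPM. Between the labels the log2 fold change was -0.31 (SE 0.28, edgeR quasi-likelihood adjusted p = 0.71), and without library 3 it was 0.024 (SE 0.092). *Gm45808*, at 0 counts in every library, overlaps exons of *Bax* on the same strand by 192 bases. How reads shared by both genes were counted is not given in the sources used here.

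**Figure D1:**
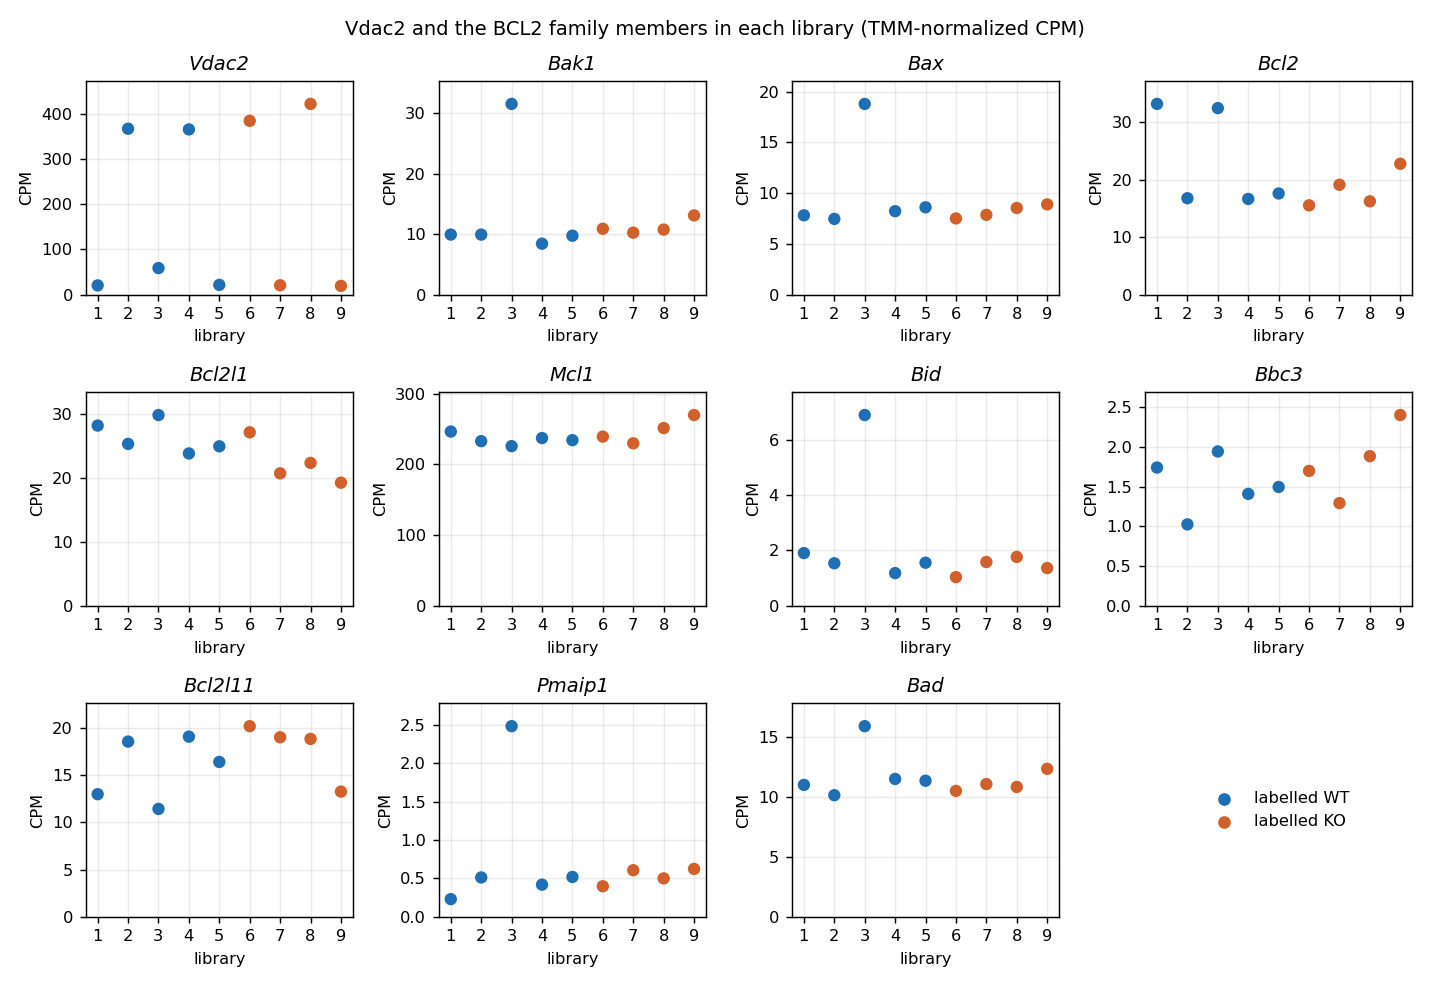
Level of *Vdac2* and of the 10 members in each library, in TMM-normalized CPM on linear axes that start at 0. Points are single libraries, blue for those labelled WT and orange for those labelled KO. *Bak1*, *Bax*, *Bcl2l1*, *Bid*, *Pmaip1* and *Bad* are highest in library 3, while *Vdac2* is low in libraries 1, 3, 5, 7 and 9 under either label.

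Of the guardians, *Bcl2* (ENSMUSG00000057329, chromosome 1 from 106538178 to 106714274, minus strand), the founding survival gene of the family, varied most among the 8 libraries other than library 3. It measured 33.2, 16.7, 32.4, 16.6 and 17.6 CPM across libraries 1 to 5 and 15.5, 19.1, 16.2 and 22.7 CPM across libraries 6 to 9. Libraries 1, 5, 7 and 9 (17.6 to 33.2 CPM) lay above libraries 2, 4, 6 and 8 (15.5 to 16.7 CPM) without overlap, and the gap between the nearest of them was 0.069 on the log2 scale. Library 1 was at 33.2 CPM, well above library 5, at 17.6 CPM with a similar *Vdac2* level. Between the labels, the means of 23.3 ± 8.67 CPM (SD, n = 5, WT) and 18.4 ± 3.29 CPM (SD, n = 4, KO) gave a log2 fold change of -0.34 (SE 0.26, edgeR quasi-likelihood adjusted p = 0.69), which was -0.18 without library 1 and -0.20 without library 3.

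*Bcl2* was the 1 member of 10 whose values did not overlap between low and high *Vdac2* libraries. Over all 16322 tested genes 12.1% did not overlap, 7.16% with the low *Vdac2* libraries above and 4.93% with them below, so the members' share was near the background. It was also 1 of 10 with library sizes normalized in 3 other ways.

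Cell type markers differed between the same libraries, and their part in the order of *Bcl2* was not tested. In low against high *Vdac2* libraries, summed levels were 35.0 to 40.3 against 16.4 to 22.5 CPM for the proliferation genes, with 3 of 3 genes above without overlap. The counts of marker genes set apart stand beside the same 12.1% of all tested genes in either direction, so that 1 gene of 4 or 5 is no more than a description. Macrophage genes summed to 231 to 345 against 152 to 229.7 CPM, with 2 of 4 above, and cardiomyocyte genes to 34192 to 39535 against 39782 to 47597 CPM, with 1 of 5 below. Fibroblast genes, with 1 of 4 above, summed to 858 to 1088 against 678 to 952 CPM, endothelial genes, with 1 of 4 below, to 396 to 519.7 against 510.1 to 606 CPM, and smooth muscle and pericyte genes, with 0 of 3 apart, to 787 to 1006 against 951 to 1122 CPM. T and B lymphocyte genes, whose lineage carries much *Bcl2*, were low throughout, with 0 of 3 tested genes apart, sums of 1.55 to 2.58 against 1.24 to 1.85 CPM and *Cd3e* at 0 counts in 1 library. In a bulk sample, fewer cells of a type and less RNA per cell cannot be told apart.

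*Bcl2l1* (ENSMUSG00000007659, chromosome 2 from 152780668 to 152831728, minus strand) measured 28.1, 25.3, 29.8, 23.8 and 24.9 CPM across libraries 1 to 5 and 27.1, 20.7, 22.3 and 19.2 CPM across libraries 6 to 9. Its splice forms include a long survival form and a short one with the opposite role, which a count per gene cannot separate. Of the 10 members it had the lowest unadjusted p between the labels, 0.071 in the edgeR quasi-likelihood fit, with a log2 fold change of -0.24 (SE 0.12, adjusted p = 0.68). The labels overlapped, since library 6, labelled KO, lay above 3 libraries labelled WT. Libraries low in *Vdac2* held both the highest (28.1 CPM) and the lowest (19.2 CPM) values among the 8.

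*Mcl1* (ENSMUSG00000038612, chromosome 3 from 95658788 to 95663176, plus strand) was the steadiest member. It measured 247, 233, 226, 237 and 234 CPM across libraries 1 to 5 and 239, 229.9, 251 and 269.9 CPM across libraries 6 to 9, a spread of 1.17 times among the 8. In contrast to the effectors, it was lowest in library 3, at 0.948 of the median of the other libraries. The log2 fold change between the labels was 0.073 (SE 0.093, edgeR quasi-likelihood adjusted p = 0.78), and 0.030 without library 9.

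Among the BH3-only genes, *Bid* (ENSMUSG00000004446, chromosome 6 from 120891930 to 120916853, minus strand), whose product links death receptors to mitochondria, measured 1.90, 1.54, 6.90, 1.18 and 1.56 CPM across libraries 1 to 5 and 1.03, 1.58, 1.77 and 1.36 CPM across libraries 6 to 9. Library 3, with 256 counts, stood at 4.47 times the median of the others, which held 31 to 60 counts. *Bid* had the most negative estimate of the members between the labels, a log2 fold change of -0.87 (SE 0.53, edgeR quasi-likelihood adjusted p = 0.68), which was -0.12 (SE 0.21) without library 3. Its exons overlap those of *Bcl2l13* on the opposite strand by 628 bases, and *Bcl2l13* was far higher, at 53.6 to 87.8 CPM, so that *Bid* reads are uncertain where the counting did not use strand.

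*Bcl2l11* (ENSMUSG00000027381, chromosome 2 from 128126038 to 128162547, plus strand) encodes BIM, an activator of both effectors. Its level per library was 13.0, 18.6, 11.4, 19.1 and 16.4 CPM across libraries 1 to 5 and 20.2, 19.0, 18.9 and 13.3 CPM across libraries 6 to 9. The 4 lowest values were in libraries 3, 1, 9 and 5, all low in *Vdac2*, but library 7, at 20.5 CPM of *Vdac2*, lay at 19.0 CPM, within the 18.6 to 20.2 CPM of the high *Vdac2* libraries. Between the labels the log2 fold change was 0.18 (SE 0.19, edgeR quasi-likelihood adjusted p = 0.73). It was 0.083 without library 3, 0.12 without library 6 and 0.30 without library 9.

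*Bbc3* (ENSMUSG00000002083, chromosome 7 from 16308393 to 16318205, plus strand) and *Pmaip1* (ENSMUSG00000024521, chromosome 18 from 66458533 to 66465565, plus strand), both known p53 targets, were expressed at low levels. *Bbc3* measured 1.74, 1.02, 1.94, 1.41 and 1.49 CPM across libraries 1 to 5 and 1.70, 1.29, 1.88 and 2.40 CPM across libraries 6 to 9, on 28 to 104 counts. It was highest in library 9 rather than in library 3, and its log2 fold change between the labels was 0.25 (SE 0.24, edgeR quasi-likelihood adjusted p = 0.73), which was 0.091 without library 9, 0.14 without library 2 and 0.39 without library 7. *Pmaip1* measured 0.230, 0.512, 2.48, 0.418 and 0.519 CPM across libraries 1 to 5 and 0.398, 0.606, 0.500 and 0.623 CPM across libraries 6 to 9. It rested on 7 to 27 counts in the 8 libraries and on 92 in library 3, which was 4.90 times their median. The log2 fold change of *Pmaip1* was -0.66 (SE 0.64, adjusted p = 0.73) and changed sign to 0.34 (SE 0.30) without library 3.

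*Bad* (ENSMUSG00000024959, chromosome 19 from 6941861 to 6951899, plus strand), whose product is held inactive by survival kinases, measured 11.03, 10.2, 15.9, 11.5 and 11.4 CPM across libraries 1 to 5 and 10.5, 11.1, 10.9 and 12.4 CPM across libraries 6 to 9. The 8 libraries besides library 3 lay within 1.22 times of each other. Between the labels the log2 fold change was -0.099 (SE 0.14, edgeR quasi-likelihood adjusted p = 0.80). Without library 3 it changed sign to 0.019, and it was -0.15 without library 2 or library 9. Its exons overlap those of *Gpr137*, on the opposite strand and at a like level of 10.9 to 15.7 CPM, by 524 bases.

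To compare levels between genes, CPM were divided by the length of the merged exons in kilobases. Over the 8 libraries other than library 3, *Mcl1* was far above the rest, with a median of 69.7 CPM per kb (range 67.3 to 79.0). *Bcl2l1* followed at 5.31 CPM per kb, then *Bax* at 5.10, *Bad* at 4.32 and *Bak1* at 4.18 CPM per kb. These 4 did not all differ beyond their spread, since *Bak1* ranged from 3.49 to 5.44 CPM per kb and *Bcl2l1* from 4.19 to 6.13. *Bcl2l11*, at 2.33 CPM per kb, and *Bcl2*, at 1.87, overlapped each other. *Bcl2l11*, at 1.62 to 2.52 CPM per kb, lay below the whole range of *Bak1*, while *Bcl2* reached into it, at 3.62 CPM per kb in library 1. The lowest were *Bbc3* at 0.751, *Bid* at 0.435 and *Pmaip1* at 0.185 CPM per kb, of which *Pmaip1* (0.0841 to 0.228) lay below the range of *Bid* (0.291 to 0.536). In library 3 the order differed, with *Bak1* at 13.1 and *Bax* at 11.9 CPM per kb both above *Bcl2l1*, at 6.49 CPM per kb.

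**Figure D2:**
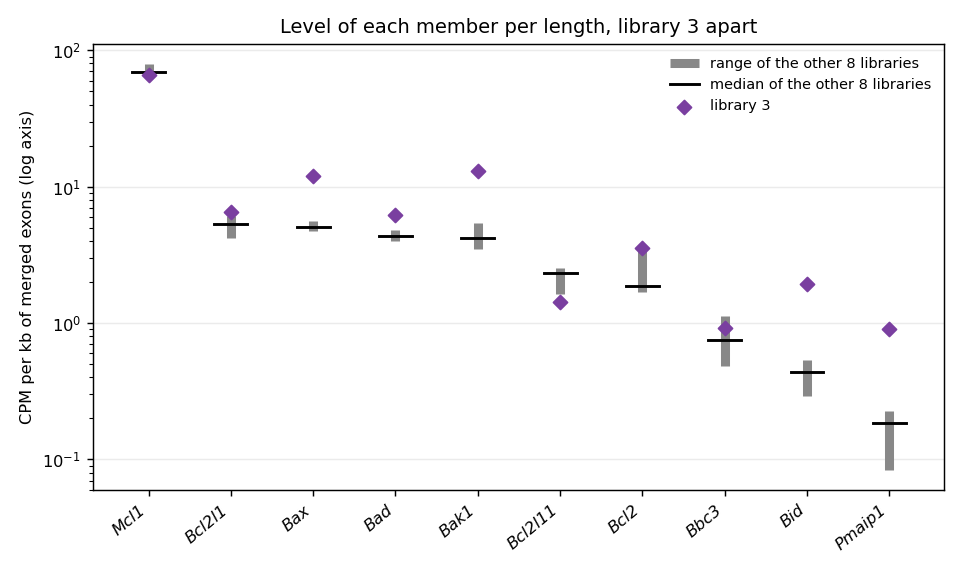
Level of each member per kilobase of merged exons, on a log axis. Grey bars span the 8 libraries other than library 3, black lines are their medians and diamonds are library 3. *Mcl1* lies at 69.7 CPM per kb, and the diamonds of *Bak1*, *Bax*, *Bcl2l1*, *Bid*, *Pmaip1* and *Bad* lie above their bars.

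Library 3 was the highest of the 9 for 6 of the 10 members, *Bak1*, *Bax*, *Bcl2l1*, *Bid*, *Pmaip1* and *Bad*. It was the lowest for *Mcl1* and *Bcl2l11*. It exceeded the highest other library by over 2 times for *Bak1*, *Bax*, *Bid* and *Pmaip1*, 4 of 10 members. Over all tested genes it was highest for 37.7%, lowest for 37.4% and over 2 times the next highest for 10.9%. The same library was low in all 5 cardiomyocyte genes and high in all 3 proliferation genes, with mixed fibroblast and smooth muscle and pericyte genes, as given above, and at 699 CPM for the 4 macrophage genes against 152 to 345 CPM elsewhere. The part of these in its BCL2 family levels was not tested.

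Between the deposited labels, 0 of the 10 members passed an adjusted p of 0.05 (edgeR quasi-likelihood), against 0.0551% of all tested genes, and 0 had an unadjusted p under 0.05, against 6.11%. DESeq2 also called 0. Of the members, 3 had a positive log2 fold change (*Mcl1*, *Bbc3* and *Bcl2l11*), and their median was -0.28, against -0.018 and 47.3% positive over all tested genes. Both rested on library 3, without which 7 members were positive and their median was 0.038, against 0.0030 and 50.6% positive over all tested genes. *Vdac2* itself had a log2 fold change of 0.35 (SE 1.19, adjusted p = 0.92), so the labels compared do not separate its level.

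**Figure D3:**
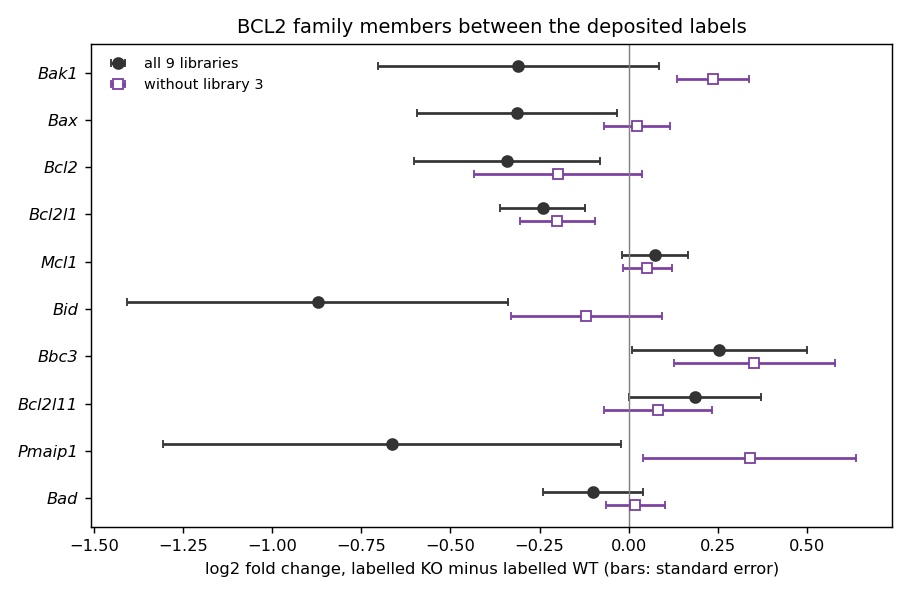
Log2 fold change of each member between the libraries labelled KO and WT from edgeR's quasi-likelihood fit, with standard errors as bars. Filled points use all 9 libraries and open squares leave out library 3, without which *Bak1* moves from -0.31 to 0.24 and *Pmaip1* from -0.66 to 0.34.

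Other genes of the pathway were read from 6 lists, and 0 genes of any list passed an adjusted p of 0.05 between the labels (edgeR quasi-likelihood, lowest 0.68). At an unadjusted p under 0.05, the same fit gave 1 of 17 caspases and inhibitors (*Birc3*) and 1 of 12 p53 targets (*Cdkn1a*). Both were named after their values were seen. The share of all tested genes was 6.11%, so both counts were near the background. DESeq2 called 0 genes in each of the 6 lists. It gave an adjusted p to 16 of 17 caspases and inhibitors and to 6 of 7 tested transcription factor genes, so the rest of these could not be called. At its unadjusted p under 0.05 it gave 1 caspase or inhibitor gene, 2 p53 targets and 1 transcription factor gene. Of 15 further genes of the BCL2 family, 9 were tested. *Bcl2l13*, an outer membrane protein of the family with a role in mitophagy, was the 1 of these whose low and high *Vdac2* libraries did not overlap, at 71.5 to 79.4 against 81.4 to 87.8 CPM, and it overlapped when scaled by total counts. Of all tested genes 12.1% did not overlap in either direction and 4.93% lay below, so 1 of 9 was near the background. The haematopoietic survival genes *Bcl2a1a*, *Bcl2a1b* and *Bcl2a1d*, near-identical copies that can share reads, were too low to be tested. Of 6 mitochondrial partners of the family 0 were set apart, a count too small to read against that share, and *Vdac1*, the most abundant porin gene, measured 682, 695, 283, 692 and 682 CPM across libraries 1 to 5 and 709.9, 683, 812 and 763 CPM across libraries 6 to 9.

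Downstream of the pores lie the apoptosome, the caspases and their inhibitors, from which 17 genes were tested. Low *Vdac2* libraries lay above high ones for 1 of them and below for 3, against 7.16% and 4.93% of all tested genes. *Casp9*, the initiator that the apoptosome activates, was at 9.03 to 9.62 against 8.41 to 8.70 CPM. The 3 that lay below were *Endog* at 35.5 to 41.2 against 42.4 to 44.4 CPM, *Diablo* at 65.3 to 70.0 against 71.0 to 78.3 CPM and *Aifm1* at 73.4 to 82.3 against 83.0 to 91.9 CPM. *Diablo* and *Aifm1* overlapped when scaled by total counts. *Birc6*, the most abundant inhibitor gene, was at 281 to 395 CPM over the 9 libraries, lowest in library 9.

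Of 12 other p53 target genes, all tested, 5 lay above in the low *Vdac2* libraries without overlap and 0 below, against 7.16% and 4.93% of all tested genes. This list and the others were chosen with earlier results of these data known, so their counts are a description only. *Phlda3*, a p53-induced inhibitor of AKT, was at 9.85 to 15.1 against 4.68 to 6.68 CPM, with library 3 at 37.4 CPM. *Eda2r*, a receptor of the tumour necrosis factor family, was at 12.4 to 14.2 against 8.12 to 8.63 CPM. *Sesn2*, a stress-induced regulator of growth signalling, was at 1.99 to 3.45 against 1.18 to 1.501 CPM. *Aen*, an apoptosis-enhancing nuclease gene, was at 24.7 to 29.2 against 20.7 to 23.2 CPM, and *Trp53inp1* at 40.7 to 52.6 against 30.8 to 40.04 CPM. Among the members, the p53 target genes *Bax*, *Bbc3* and *Pmaip1* overlapped, *Pmaip1* through library 1 alone, which held 7 counts. *Ccng1*, the most abundant of the 12, was at 1456 to 1803 against 1467 to 1606 CPM. Without library 9, the count in either direction rose from 5 to 9 of 12, of which 8 lay above and *Sesn1*, named after its values were seen, lay below, and the share of all genes in either direction rose from 12.1% to 17.8%.

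Of 8 transcription factor genes known to act on BH3-only genes, 7 were tested and 3 lay above in the low *Vdac2* libraries, against 7.16% of all tested genes. The same limit holds for this list, which was also chosen with earlier results of these data known. *Atf4*, the main factor of the integrated stress response, was at 83.1 to 113.6 against 55.3 to 73.9 CPM. *Ddit3*, which encodes CHOP, was at 13.7 to 20.04 against 11.8 to 13.4 CPM, and *E2f1*, a cell cycle factor, at 0.646 to 1.04 against 0.324 to 0.557 CPM. The order of *E2f1* rested on 10 to 34 counts per library. *Foxo3*, with the highest mean CPM of the 7 without regard to length, was at 97.6 to 133 against 107 to 137 CPM. *Bcl2l11* and *Bbc3*, which CHOP and FOXO3 are known to act on, overlapped between the same libraries. Of 4 genes for the turnover of MCL1, 3 were tested and 0 were set apart, against 12.1% of all tested genes, and the deubiquitinase gene *Usp9x* was at 451 to 549 CPM over the 9 libraries. The proliferation and macrophage markers given above differed between the same libraries, and their part in these orders was not tested.

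**Figure D4:**
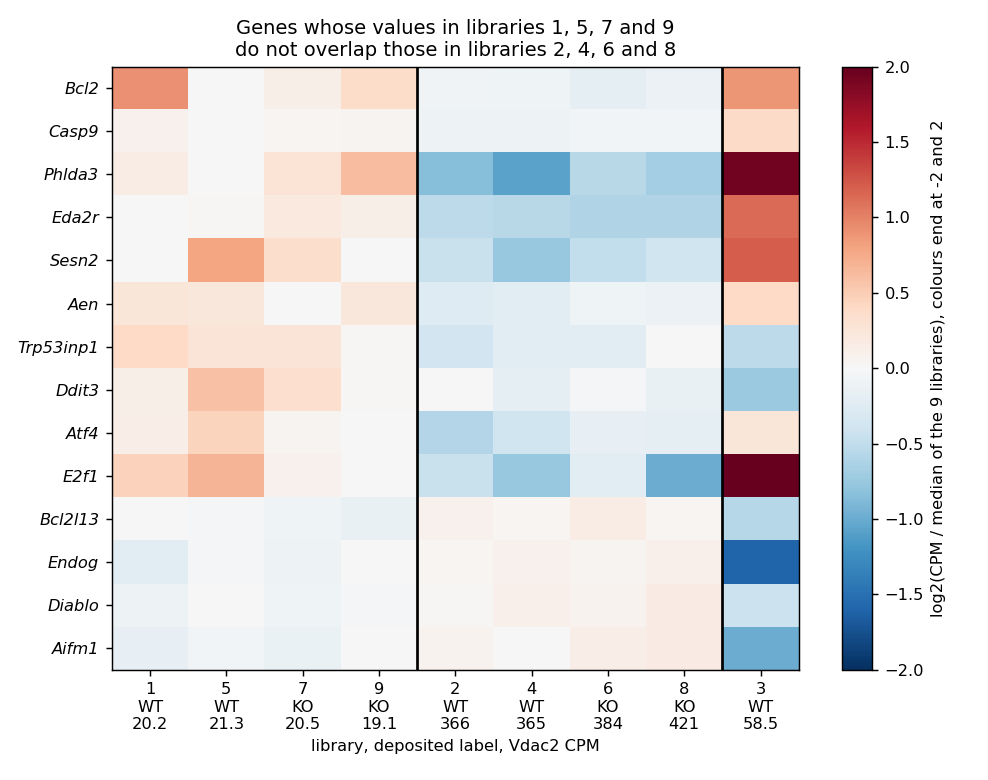
Log2 of CPM over the median of the 9 libraries for *Bcl2* and 13 other genes, chosen because their values in libraries 1, 5, 7 and 9 do not overlap those in libraries 2, 4, 6 and 8. Columns give the library, its deposited label and its *Vdac2* CPM, with library 3 apart. The lower 4 rows, *Bcl2l13*, *Endog*, *Diablo* and *Aifm1*, are the ones that lie below. *Bcl2* is the 1 member among the 10, near the 12.1% of all tested genes that do not overlap.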

How the data were processed

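The authors deposited one table of raw counts of reads per Ensembl gene, without normalization, for 9 libraries. Per the labels and the submitters' processing notes, total RNA was depleted of ribosomal RNA, made into stranded libraries, aligned to GRCm38 with STAR 2.7.2c and counted with featureCounts 1.6.3. Whether counting used strand, and how multimapped reads were treated, is not given in the sources used here, and no column was left out.

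Libraries were grouped by the deposited labels and compared with edgeR 4.0.16 (R 4.3.3), using filterByExpr (16322 genes tested), TMM normalization, robust dispersions and the quasi-likelihood F-test with Benjamini-Hochberg adjustment over all tested genes. Each SE was taken as the size of the log2 fold change over the root of its F statistic. CPM are counts over the TMM-normalized library size. For gaps on the log2 scale, 0.05 CPM was added. No library was a copy of another (chi-square over degrees of freedom at least 7.10 for each pair). Coordinates, exon lengths and overlaps are from GENCODE M21 (GRCm38). Libraries set apart by *Vdac2* were described without a test, since that split uses measured values and not the labels.

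On simulated counts for the comparison of the labels (16152 genes tested, common dispersion 0.099), edgeR recovered 100% of 100 genes changed by 2 on the log2 scale and 30% of 100 changed by 1, with 5.80% of calls false. Alternatives were no low-count filter, scaling by RLE, by upper quartile or by total counts, DESeq2 1.42.0, and each library left out. The members and lists were chosen with earlier results of these data known. All 10 members were named, and in each other list those called, up to 5 that did not overlap (widest gap first) and the one with the highest mean CPM. A gene of these lists is not reported here and was left out of its list's counts.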

Additional observations from a re-analysis of the deposited data

Results flagged for a closer look

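In groups of 4 or 5 libraries, a single library was set off from the rest of its label in 14 of 58 gene and label pairs, by a gap over Dixon's critical value for the group's size. Chance sets off about 1 in 20 such groups. Library 3, labelled WT, accounted for 13 of the 14, on the high side in 8. Among the members it was high for *Bak1* (31.5 CPM), *Bax* (18.8 CPM), *Bid* (6.90 CPM), *Pmaip1* (2.48 CPM) and *Bad* (15.9 CPM). Of the other genes named, it was high for *E2f1* (4.53 CPM), *Phlda3* (37.4 CPM) and *Eda2r* (27.2 CPM). It was low for *Bcl2l13* (53.6 CPM), *Vdac1* (283 CPM), *Endog* (13.6 CPM), *Foxo3* (50.9 CPM) and *Ccng1* (853 CPM). Library 9, labelled KO, was low for *Birc6* (281 CPM). The 13 values share 1 library and are not independent of each other. Over all tested genes library 3 was the highest for 37.7% and the lowest for 37.4%. The 13 are therefore not read as particular to these genes.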

How the results depend on the processing

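In all 13 alternative fits, 0 members had an adjusted p under 0.05 between the labels (adjusted p from 0.39 to 0.95), also without any single library. Over all genes the count of 9 became 62 with DESeq2, and 5 to 62 with each library left out, the 62 without library 3. The log2 fold change changed sign in 6 of 143 fits of the members and *Vdac2*. Without library 3 it became 0.24 for *Bak1*, 0.024 for *Bax*, 0.34 for *Pmaip1* and 0.019 for *Bad*. When single libraries were left out it ranged from -0.44 to 0.24 for *Bak1*, -0.41 to 0.024 for *Bax*, -0.90 to 0.34 for *Pmaip1*, -0.15 to 0.019 for *Bad*, -1.06 to -0.12 for *Bid*, -0.46 to -0.18 for *Bcl2*, -0.35 to -0.17 for *Bcl2l1*, 0.030 to 0.11 for *Mcl1*, 0.091 to 0.39 for *Bbc3*, 0.083 to 0.30 for *Bcl2l11* and -0.23 to 0.86 for *Vdac2*. For *Vdac2* it became -0.11 without library 6 and -0.23 without library 8. Without library 3 the unadjusted p of *Bak1* was 0.038, and without library 6 that of *Bcl2l1* was 0.012. The count of members that did not overlap between low and high *Vdac2* libraries was 1 to 2 with each of the 8 left out, the added gene being *Pmaip1* without library 1, *Bcl2l11* without library 7 and *Bad* without library 4, while the share of all genes rose to between 14.9% and 17.8%, since fewer libraries overlap less often. For the other lists the same counts ranged, without single libraries, from 4 to 6 for the caspases (2 when scaled by total counts), 5 to 9 for the p53 targets, 1 to 3 for the other BCL2 family genes, 3 to 4 for the transcription factors, 0 to 1 for the mitochondrial partners and 0 to 1 for MCL1 turnover. The cause of the other changes was not tested. No paired analysis was possible because the labelled groups share no replicate numbers. The depth limits *Pmaip1* most, which held 7 to 27 counts outside library 3.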
